A study of Homo sapiens with 4 samples.

Results

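The RNAs of the solute carrier genes are the protein-coding RNAs of the deposited contact table whose symbol begins with SLC and a family number. SLC25A37 was left out of the set. The rule gave 40 RNAs of 2637 in the table, of which 2435 were protein-coding, and they held 1323 of 115357 RNA-to-element connections. The 40 genes lie on 19 chromosomes, and all of them were matched by symbol to the RefSeq annotation of GRCh38.p14, the assembly that hg38 presents.

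The contacts were measured by GRID-seq, in which RNA and the chromatin beside it are joined by a linker inside crosslinked nuclei and sequenced as pairs, so that each RNA is placed on the DNA it lay near. The cells were K562, an established human line derived from chronic myeloid leukaemia that carries the BCR-ABL1 fusion. The study set K562 cells labelled wild type (WT) for RUNX1 against K562 cells labelled RUNX1 R320*, in which a premature stop codon cuts off the C-terminal end of RUNX1, a transcription factor of blood cells, and asked how enhancer and promoter contacts differ. There were 2 libraries of each genotype, 4 in all, with no drug treatment or time course named. Whether libraries of the same genotype were grown separately is not stated in the labels, and neither is whether the R320* cells are a clone, how the change was made or whether every RUNX1 copy carries it.

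The table gives 1 score per connection and genotype, pooled over the libraries. No value therefore has a replicate error, the depth behind it is unknown, and the differences below are descriptions of these pooled values with no test. A score is in the authors' units, the lowest listed is 1.2, and 0 means that the connection was not listed in that genotype. RNA abundance was not measured here, so fewer contacts and less RNA cannot be told apart, and neither can a genotype difference and a difference between these libraries. Of 9 RNAs chosen as K562 markers, 5 were listed: HBG2 and HBE1 (globins), TFRC (the transferrin receptor), BCR and ABL1.

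Solute carriers are the membrane proteins that move nutrients, metals, ions and metabolites into cells and between their compartments, and the number after SLC names the family. Families SLC1, SLC3, SLC6, SLC7 and SLC38 carry amino acids, SLC25 carriers sit mostly in the inner mitochondrial membrane, and SLC11, SLC30 and SLC39 move metals. Erythroid and leukaemic cells draw on such carriers for iron, amino acids and glucose. An RNA caught on chromatin is largely nascent and lies mostly beside its own gene, which makes its contacts a record of which elements are near the transcribed gene.

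The median solute carrier RNA had 30 connections over both genotypes, against 33 for all protein-coding RNAs, with a range from 4 to 120. The 4 RNAs with most connections held 365 of them, 27.6%. WT listed 951 solute carrier connections and R320* listed 973. Of all 1323, 601 (45.4%) were listed in both genotypes, 350 by WT alone and 372 by R320* alone. The shared portion was 48.6% over all protein-coding RNAs and 45.2% over the whole table. Longer genes tended to have more connections (Spearman 0.357 and Pearson 0.573 across the 40 genes, which share the same libraries).

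**Figure D1:**
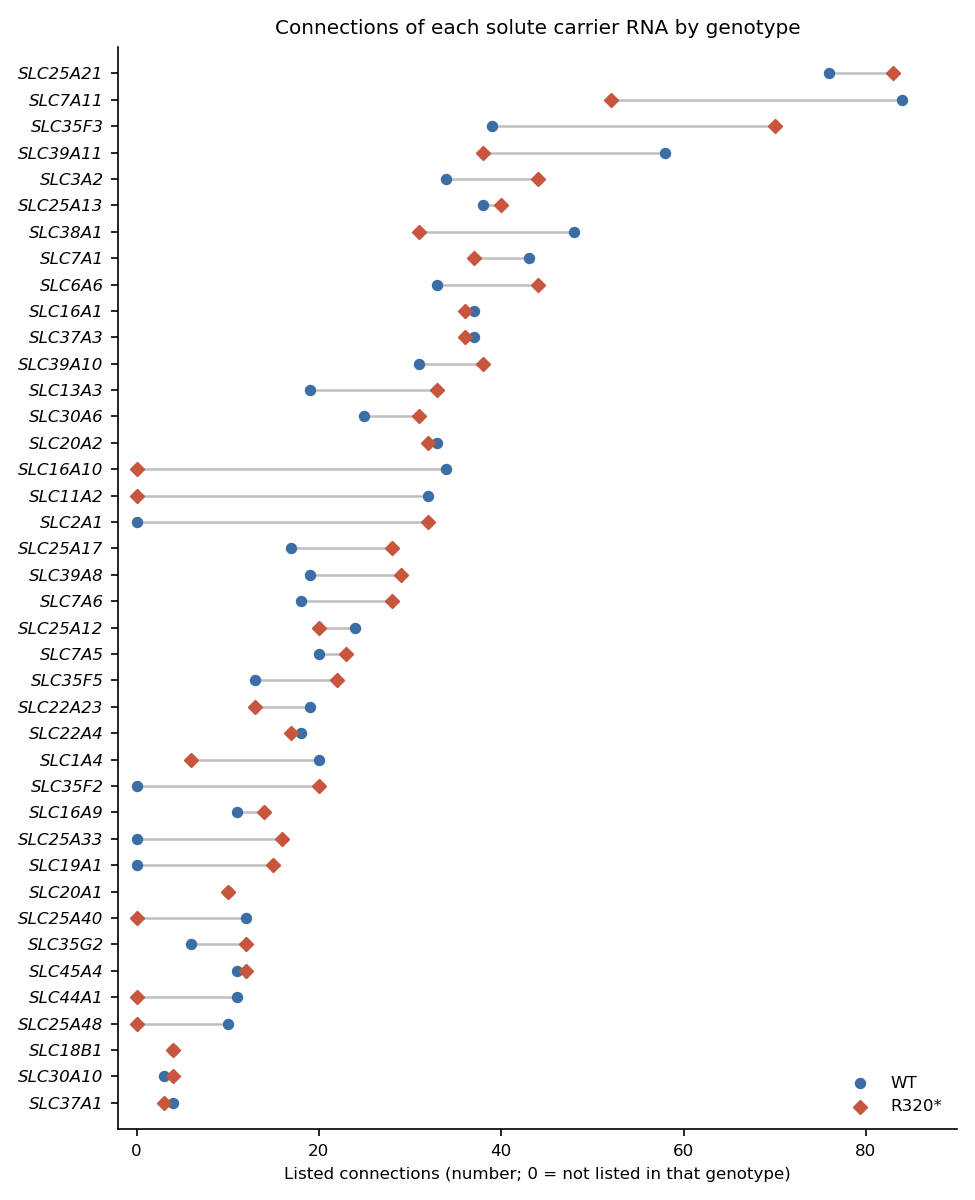
Number of listed connections (x axis) of each of the 40 solute carrier RNAs (y axis, ordered by the total over both genotypes) in WT (circles) and R320* (diamonds), each a single pooled value. SLC7A11 goes from 84 to 52 and SLC35F3 from 39 to 70, while 9 RNAs have a point at 0 in either genotype.

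Among the 31 RNAs listed in both genotypes, 17 had more connections in R320*, 12 had fewer and 2 had equal numbers, with a median log2 ratio of R320* to WT of 0.13 against 0.09 over all 2137 RNAs of both genotypes. The portion with more in R320* was 54.8% of these 31 RNAs and 58.2% of all 2137. A number was counted as different when it was at least 2-fold apart and the mean of the 2 genotypes was at least 25. Of the 15 solute carrier RNAs that reached this mean, 0 were past 2-fold in either direction, 8 had more in R320* and 7 had fewer. Over all 1293 RNAs with such a mean, 0.619% were at least 2-fold higher in R320* and 0.619% at least 2-fold lower. Without the minimum mean, SLC35G2 was at 2-fold more (6 in WT and 12 in R320*) and SLC1A4 was past 2-fold fewer (20 in WT and 6 in R320*), beside 3.37% and 1.59% of all RNAs.

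The amino acid carriers, grouped by family number, were the largest group by connections. This grouping leaves out SLC16A10, an aromatic amino acid carrier listed in WT only, which falls in the monocarboxylate family. The 8 RNAs of the amino acid group held 300 connections in WT and 265 in R320*. All 8 were listed in both genotypes, and 4 had more connections in R320* while 4 had fewer. SLC7A11, the cystine and glutamate exchanger that supplies cysteine for glutathione, went from 84 connections in WT to 52 in R320* (log2 ratio -0.69), the largest fall by number of any member listed in both genotypes. This fall lay entirely in its distant contacts. Within 1 Mb of the gene SLC7A11 RNA met 20 elements in WT and 21 in R320*, with 20 shared, of which 17 scored higher in R320* (median difference 0.16, against 0.04 over the whole table). Beyond 1 Mb on chromosome 4 it met 52 in WT and 28 in R320*, with 14 shared, and on other chromosomes 12 and 3. Distant contacts were more often weak: over all members 29.7% of same-chromosome connections lay beyond 1 Mb, and 20.5% at scores of at least 1.5. Whether the SLC7A11 contacts missing from R320* fell below the lowest listed score, 1.2, was not tested. At the SLC7A11 gene itself the scores were higher in R320*, at 2.07 and 2.25 for the promoter and 2.08 and 2.25 for the enhancer inside the gene. The 3 other RNAs within 5 Mb of SLC7A11 all had fewer connections in R320*, with a median log2 ratio of -0.23, and a local effect on the region cannot be told apart from one on this RNA.

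**Figure D2:**
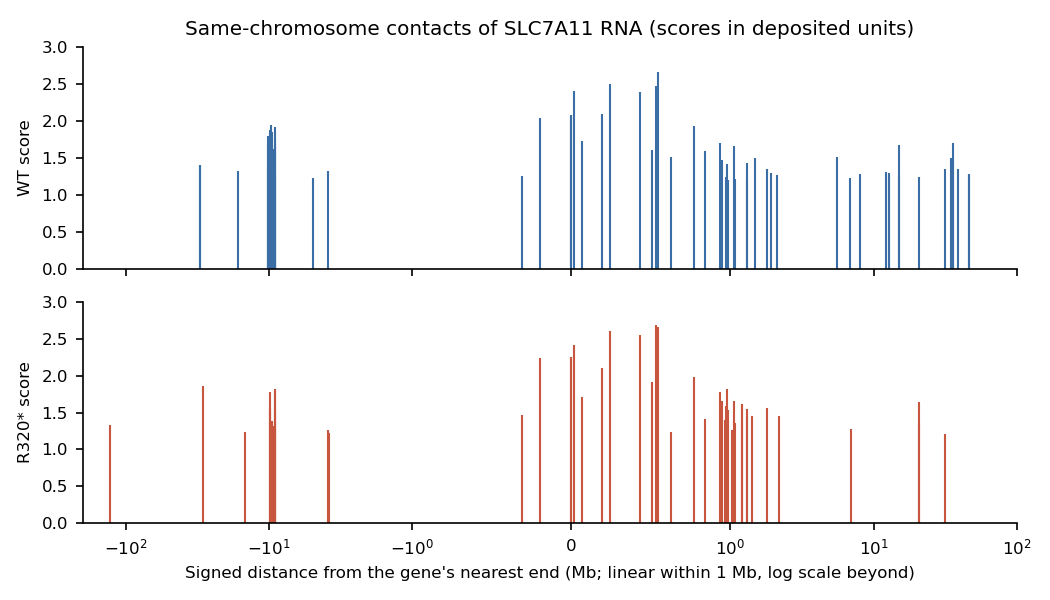
Score (y axis, deposited units) of every same-chromosome contact of SLC7A11 RNA in WT (top) and R320* (bottom) against signed distance from the nearest end of the gene (x axis, Mb, linear within 1 Mb and logarithmic beyond). The contacts within 1 Mb are alike in number, 20 in WT and 21 in R320*, and those beyond 1 Mb thin out from 52 to 28.

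SLC3A2, the CD98 heavy chain that brings SLC7A5, SLC7A6 and SLC7A11 to the cell surface, had 34 listed contacts in WT and 44 in R320* (log2 ratio 0.37). Of its partners, SLC7A5 had 20 in WT and 23 in R320*, and SLC7A6 had 18 and 28. By total number, SLC7A11 had fewer connections in R320* and the other 3 had more. Within 1 Mb each had more in R320*. There SLC3A2 had 31 in WT and 36 in R320*, and SLC7A5 had 15 and 18. SLC7A6 had 18 and 28, and SLC7A11 had 20 and 21. By total number, 58.2% of all RNAs of both genotypes had more in R320*, and the share within 1 Mb was not computed. SLC6A6, the taurine carrier, had 33 in WT and 44 in R320* (log2 ratio 0.42). Every one of these numbers is below a 2-fold difference. SLC7A1, the cationic amino acid carrier for arginine and lysine, had 43 and 37.

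SLC38A1 is a sodium-coupled glutamine carrier whose gene lies on chromosome 12. It went from 48 contacts in WT to 31 in R320* (log2 ratio -0.63). All 31 in R320* were also listed in WT, so nothing was gained. The 5 elements within 100 kb were listed in both genotypes. The elements listed in WT only lay farther out, with 16 in WT and 11 in R320* from 100 kb to 1 Mb and 27 and 15 beyond 1 Mb. Its highest score in R320* was at the promoter of its neighbour and paralogue SLC38A2, 99.7 kb away, with 2.66 in WT and 2.75 in R320*. In WT the promoter of AC008014.1 scored highest, with 2.68, and it had 2.69 in R320*. Chromosome 12 stood apart in the table as a whole. Its cis connections were fewer in R320* than in WT by 48.5% of the 3526 listed in either genotype. Of 123 other RNAs from it, 65 were listed in WT only. The lower number for SLC38A1 moves with that chromosome, and a difference of this gene cannot be told apart from it.

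SLC1A4, a carrier of alanine, serine and cysteine, had few but strong contacts. It met 20 elements in WT and 6 in R320* (log2 ratio -1.74), and all 20 lay within 1 Mb. The 6 that remained were the 6 within 100 kb, all shared, while the 14 between 100 kb and 1 Mb were listed in WT only, with a median WT score of 2.50. Its own elements held the highest local scores of the set and were higher in R320*: the promoter of SLC1A4 scored 3.64 in WT and 3.94 in R320*, and the enhancer inside the gene 3.65 and 3.98. The 12 RNAs of both genotypes within 5 Mb had a median log2 ratio of 0.03, with 6 having more and 5 fewer connections.

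The promoters of these amino acid carriers are shown because nutrient-stress factors such as ATF4 are known to bind TGATGNAA, the amino acid response motif, in such promoters. RefSeq promoter windows of GRCh38.p14, running from 250 bases before a transcript start to 50 after it, were found for 32 of the 40 members, 49 windows in all. Members without a window included the amino acid carriers SLC7A11 and SLC6A6, so their promoters were not searched. Searched on both strands, TGATGNAA occurred in 6 of the 49 windows (12.2%), those of SLC1A4, SLC38A1, SLC3A2, SLC7A1, SLC11A2 and SLC39A11, and in 3.62% of all 35116 windows of the same length. The RUNX motif TGTGGT occurred in 4 of 49 (8.16%) against 13.1% of all windows, and the GATA motif AGATAA in 3 (6.12%) against 10.3%. No matches of different motifs overlapped. The stretches that follow are those of the amino acid carriers, 5′ to 3′ on the strand of the gene, with the match in capitals. Where the motif lies on the other strand, its reverse complement is what the capitals show.
SLC1A4, chr2:64989381-64989410, plus strand: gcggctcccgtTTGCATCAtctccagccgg
SLC38A1, chr12:46266502-46266531, minus strand: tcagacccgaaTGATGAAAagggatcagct
SLC7A1, chr13:29595663-29595692, minus strand: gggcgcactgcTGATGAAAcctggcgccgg
SLC3A2, chr11:62881719-62881748, plus strand: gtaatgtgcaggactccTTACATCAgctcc
The stretches of SLC1A4, SLC38A1 and SLC7A1 lie inside promoter elements that their own RNAs met in both genotypes. Those promoters scored 3.64 in WT and 3.94 in R320* for SLC1A4, 2.45 and 2.50 for SLC38A1, and 2.09 and 2.16 for SLC7A1. The stretch of SLC3A2 lies in no element that its RNA met. A match describes the letters and shows no binding.

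SLC38A1 also had the only RUNX match inside a promoter element that the RNA of the same gene met. This window is shown for that reason, as the 250 bases before the transcript start, with the match at bases 17 to 22 in capitals.
SLC38A1, chr12:46267988-46268237, minus strand: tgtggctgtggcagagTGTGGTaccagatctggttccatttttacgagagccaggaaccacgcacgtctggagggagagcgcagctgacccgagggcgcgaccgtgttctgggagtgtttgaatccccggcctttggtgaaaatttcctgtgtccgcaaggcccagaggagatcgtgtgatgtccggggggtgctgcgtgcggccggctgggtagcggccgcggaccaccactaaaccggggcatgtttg

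SLC7A5, the large neutral amino acid carrier, reached the other arm of chromosome 16 in both genotypes. Its highest score was at an enhancer 66.3 Mb away (chr16:21510127-21527982), with 3.38 in WT and 3.23 in R320*. All 5 of its contacts beyond 1 Mb lay within 100 kb of RefSeq pseudogene copies of SLC7A5: 3 at SLC7A5P2 and 2 at SLC7A5P1. Reads of near-identical copies can be placed at the wrong copy, so these contacts are uncertain. Inside its own gene SLC7A5 RNA scored 2.82 in WT and 2.87 in R320* at the enhancer.

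The mitochondrial carriers numbered 7, of which 4 were listed in both genotypes, and held 177 connections in WT and 187 in R320*. SLC25A21, the oxodicarboxylate carrier of lysine and tryptophan breakdown, had the most connections of all members, with 76 in WT and 83 in R320*. It was also the member that reached most often to other chromosomes, with 32 trans contacts in WT and 38 in R320*, which together are 56.5% of all trans connections of the set. Its contacts within 1 Mb were the same 16 elements in both genotypes, with a median shared difference of 0.08 from 100 kb to 1 Mb. At its own gene it scored 1.28 in WT and 1.23 in R320* at its enhancer, the lowest local scores among the members. SLC25A13, the aspartate and glutamate exchanger, had 38 and 40 connections, all on chromosome 7, and over both genotypes 37 of its 48 elements lay beyond 1 Mb. SLC25A12, its paralogue, had 24 and 20, and SLC25A17, the peroxisomal member of the family, had 17 and 28.

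Merged within 1 Mb, the trans contacts of SLC25A21 came to 32 places on 15 chromosomes, of which 18 were listed in WT, 17 in R320* and 3 in both. The first shared place was at LINC01087 and C2orf27A on chromosome 2, with scores up to 3.09 in WT and 2.88 in R320*. It held the only shared connection of the set that differed by 1 unit or more, an enhancer at chr2:131639110-131644652 that scored 2.47 in WT and 1.24 in R320*. The shared place on chromosome 22 was at DUXAP8, with 2.20 and 1.90. The third lay on chromosome 9 and ran from ABL1 past AIF1L to NUP214. In WT 1 element of it was listed, an enhancer at NUP214 with 1.82, and in R320* 4 were listed, with the top score of 2.21 at the NUP214 promoter and 1.68 at ABL1. ABL1 and BCR are the partners of the K562 fusion, and a link of these contacts to it was not tested. RSPH14 and RAB36 on chromosome 22 were also met by SLC25A21 RNA, in WT only, with up to 2.21. Many RNAs met these RSPH14 and RAB36 elements, 25 to 53 in the whole table, against a median of 4 for all elements with trans contacts.

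The metal carriers numbered 6 with 168 contacts in WT and 140 in R320*, but the 5 present in both genotypes had 136 and 140. Of these 5, 4 had higher numbers in R320*, beside 58.2% of all RNAs of both genotypes. SLC39A11, a zinc carrier, had 58 in WT and 38 in R320* (log2 ratio -0.61). As for SLC7A11, its near contacts were kept: 14 in WT and 13 in R320* within 1 Mb, against 35 and 25 beyond 1 Mb and 9 and 0 on other chromosomes. Whether its contacts missing from R320* fell below the lowest listed score, 1.2, was not tested. Its strongest contact was a trans enhancer at AL590560.1 on chromosome 1, at 2.52 in WT and not listed in R320*. At its own promoter the score was 1.61 in WT and 1.96 in R320*. Unlike at SLC7A11, the RNAs around SLC39A11 went both ways. Of 10 within 5 Mb, 7 were listed in both genotypes, 6 with more connections in R320* and 1 with fewer. The other 3 were listed in WT only.

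Of the other zinc carriers, SLC39A10 had 31 connections in WT and 38 in R320*, and SLC39A8 had 19 and 29. SLC30A6, which loads zinc into the Golgi, had 25 and 31 (log2 ratio 0.31), with 17 and 21 within 1 Mb and 8 and 10 beyond. SLC30A10, a manganese exporter, had 3 and 4. SLC11A2, the DMT1 carrier that takes iron across the endosomal membrane, was listed in WT only, with 32 connections and the highest score of any member, 4.21 at an enhancer 3.80 kb from the gene. Its own promoter scored 2.96 and its own enhancer 2.77. SLC11A2 lies on chromosome 12, and within 5 Mb of it 11 of 16 other RNAs were also listed in WT only, while the other 5 had fewer connections in R320*.

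The promoter window of SLC11A2 with a GATA match is shown because GATA1 is the erythroid factor of these cells. The window overlaps the contacted promoter element chr12:51017481-51028261, although the matched bases lie just outside that element. The capitals mark bases 187 to 192, which read AGATAA on the other strand. Bases are counted from the 5′ end.
SLC11A2, chr12:51028243-51028492, minus strand: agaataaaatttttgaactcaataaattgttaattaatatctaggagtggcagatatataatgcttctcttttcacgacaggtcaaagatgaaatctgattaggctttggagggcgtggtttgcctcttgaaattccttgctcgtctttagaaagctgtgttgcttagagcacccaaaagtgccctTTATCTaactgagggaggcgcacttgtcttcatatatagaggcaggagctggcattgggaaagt

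The family SLC35, whose studied members carry nucleotide sugars into the Golgi and endoplasmic reticulum, had 4 RNAs here. Their numbers summed to 58 in WT and 124 in R320*, of which the 3 present in both genotypes gave 58 and 104. Each of these 3 had the higher number in R320*, as did 58.2% of all RNAs of both genotypes. SLC35F3, a proposed thiamine carrier, had 39 in WT and 70 in R320* (log2 ratio 0.84), the largest rise among members with a mean of at least 25. The number went from 31 to 49 within 1 Mb, from 6 to 14 beyond 1 Mb and from 2 to 7 on other chromosomes. Within 100 kb it was 5 in WT and 6 in R320*. Adjacent elements count separately here: merged within 1 Mb, the trans contacts of SLC35F3 came to 2 places in WT and 3 in R320*. Its own promoter differed little, with 1.80 in WT and 1.76 in R320*. The RNAs around it rose less: 9 of 12 neighbours of both genotypes had more connections and 2 had fewer, with a median log2 ratio of 0.09, while 7 further neighbours were listed in R320* only.

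SLC35F5 went from 13 to 22 contacts, and 4 of those in R320* were trans contacts at FAM138E on chromosome 15, with scores up to 3.67. FAM138B, a relative of FAM138E by its name, lies 124 kb from SLC35F5 on chromosome 2, so the placement of these reads is uncertain. SLC35G2 had 6 and 12, of which 3 and 8 were trans. Its highest scores were at the promoter of MALAT1, an abundant nuclear long noncoding RNA, with 3.15 in WT and 3.14 in R320*. The promoter of NCK1, 4.38 kb from SLC35G2, was close behind with 3.03 and 2.90, and the enhancer inside SLC35G2 had 2.45 and 2.41.

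The carriers of monocarboxylates and other organic acids numbered 4 RNAs, with 101 contacts in WT and 83 in R320*. SLC16A10, listed in WT only with 34, accounts for the lower sum: the 3 RNAs of both genotypes had 67 in WT and 83 in R320*, 2 with more and 1 with fewer. SLC16A1, the lactate carrier MCT1, had 37 and 36, and its own elements were among the strongest of the set: the promoter scored 3.09 in WT and 3.16 in R320*, the enhancer inside the gene 3.12 and 3.11, and an enhancer 4.06 kb away 3.66 and 3.65. SLC13A3, a dicarboxylate carrier on chromosome 20, had 19 in WT and 33 in R320* (log2 ratio 0.80). Beyond 1 Mb it had 6 contacts in R320*, the farthest at 2.01 Mb, where WT had 0. Merged within 1 Mb, all contacts of SLC13A3 came to 1 place in WT and 2 in R320*. On chromosome 20 as a whole, cis connections were more in R320* than in WT by 22.3% of the 1685 listed in either genotype. This excess moves with the rise of SLC13A3, and its part in that rise was not tested. SLC16A9 had 11 and 14.

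Among the remaining families, the phosphate carrier SLC20A2 met 33 elements in WT and 32 in R320*, and SLC20A1 had 10 and 10. SLC37A3 had 37 and 36, and SLC22A4, the ergothioneine carrier, had 18 and 17. SLC22A23 had 19 in WT and 13 in R320* (log2 ratio -0.55), and 9 of its 10 shared connections scored lower in R320*, with a median difference of -0.07. SLC45A4, SLC18B1 and SLC37A1 had 12, 4 and 4 connections over both genotypes. All 3 shared connections of SLC37A1 scored lower in R320*, with a median difference of -0.58.

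In WT but not R320*, 5 of 40 members were listed, and 4 of 40 in R320* but not WT. Over all RNAs of the table these portions were 10.4% and 8.61%, so the solute carriers were near the background. The WT-only RNAs were SLC16A10 with 34 connections, SLC11A2 with 32, SLC25A40 with 12, SLC44A1 with 11 and SLC25A48 with 10. SLC16A10 carries aromatic amino acids, SLC25A40 mitochondrial glutathione and SLC44A1 choline. The R320*-only RNAs were SLC2A1 with 32, SLC35F2 with 20, SLC25A33 with 16 and SLC19A1 with 15. SLC2A1 is the glucose carrier GLUT1, SLC25A33 a mitochondrial pyrimidine nucleotide carrier and SLC19A1 the reduced folate carrier.

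Scores of these RNAs ran from 1.25 (SLC25A40) to 4.21 (SLC11A2). The median score of their 182 connections was 1.99, and 90 (49.5%) scored at least 2. Over all their connections, members of both genotypes had medians of 1.74 in WT and 1.77 in R320*. All RNAs of the table listed in a single genotype had a median of 1.83. Connections that the other members listed in a single genotype had a median of 1.54 with 13.7% at least 2. Those hold no local contacts, so the sets are unlike. SLC25A33 scored 3.81 at the promoter of its neighbour TMEM201, 3.03 kb away, and 2.96 at its own promoter. SLC25A40 scored 3.42 at its own enhancer, and SLC25A48 scored 3.64 at the promoter of NUBP1 on chromosome 16. SLC16A10 scored from 1.26 to 2.86 and reached 79.1 Mb along chromosome 6. SLC2A1 RNA scored 3.19 at the enhancer inside its gene and 2.77 at its own promoter. The neighbourhood of SLC2A1 was listed in WT too, since 22 of 24 other RNAs within 5 Mb had connections in both genotypes. For SLC25A48, 8 of 33 neighbours were also WT only and 19 of the 25 listed in both had fewer connections in R320*. Whether the authors' processing set a minimum per RNA was not given in the sources used here.

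The promoter of SLC2A1 is shown as that of the R320*-only member with the widest role in cell nutrition. It lies inside the contacted element chr1:42956431-42963842, and no base is in capitals because none of the 3 motifs was found in its window.
SLC2A1, chr1:42958869-42959118, minus strand: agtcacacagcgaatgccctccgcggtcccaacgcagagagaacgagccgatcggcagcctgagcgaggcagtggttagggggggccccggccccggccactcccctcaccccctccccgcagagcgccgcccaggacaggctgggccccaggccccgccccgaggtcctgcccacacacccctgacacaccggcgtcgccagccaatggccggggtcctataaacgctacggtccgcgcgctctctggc

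By type, the 1323 connections were 73 local in the authors' typing (at or near the gene itself), 1135 cis (elsewhere on the chromosome) and 115 trans (on other chromosomes). Of the 73 local elements, 64 touched the gene, 9 lay off it by up to 85.0 kb, and 5 were named for another gene, such as the RPS12 promoter met by SLC18B1 RNA. Of local connections 57 of 73 (78.1%) were listed in both genotypes. All 40 members had a local contact, and every local contact of the members listed in both genotypes was shared. The local contacts listed by WT alone (9) or R320* alone (7) all belonged to RNAs listed in that genotype only. The local portion therefore follows the listing of whole RNAs and does not measure how steady local contacts are. Of cis connections 47.2% were shared, and of trans connections 8 of 115 (6.96%). Over all protein-coding RNAs the shared portions were 82.3%, 52.6% and 12.3%. Trans contacts made up 8.69% of solute carrier connections and 13.5% of those of protein-coding RNAs, and without SLC25A21 4.16%. They came from 9 members, and 31 members had none.

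The local scores differed little between genotypes. At 26 shared local promoters the median of R320* minus WT was 0.05 (SD 0.16 over connections), with 19 higher and 7 lower, and at 31 shared local enhancers it was 0.01 (SD 0.09), with 16 higher and 15 lower. The enhancer scored above the promoter in 21 of the 28 members with both local elements in WT and in 19 of 27 in R320*. The strongest contact of a member was local in 11, cis in 22 and trans in 7, an enhancer in 26 and a promoter in 14, and within 100 kb of the gene in 27.

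Enhancers made up 879 and promoters 444 (33.6%) of the connections, against 34.2% promoters for all protein-coding RNAs. The table holds its rows in 2 successive blocks that are not explained, and the promoter portion was 49.3% in the first block and 6.21% in the second. The elements of the blocks overlap in length, with medians of 3275 and 734 bases. Enhancer contacts scored a median of 1.73 in WT and 1.77 in R320*, and promoter contacts 1.83 and 1.82. SLC3A2 met 25 promoters and 24 enhancers, while SLC25A48 met 1 promoter among 10 elements and SLC35G2 met 9 among 12.

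Of 1208 same-chromosome connections, 256 lay within 100 kb, 593 between 100 kb and 1 Mb and 359 (29.7%) beyond 1 Mb. The portion listed in both genotypes was 72.7%, 50.4% and 30.1% in these ranges, against 80.9%, 61.4% and 26.8% for all protein-coding RNAs. The median shared score in WT was 2.19, 1.78 and 1.55. The median member's farthest contact lay at 1.46 Mb, and 8 members reached beyond 10 Mb with 64 connections, of which 9 were shared. The farthest was SLC7A11 at 128 Mb, listed in R320* only. SLC16A10 reached 79.1 Mb, SLC7A5 66.3 Mb at its pseudogene copies, and SLC25A21 58.3 Mb.

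**Figure D3:**
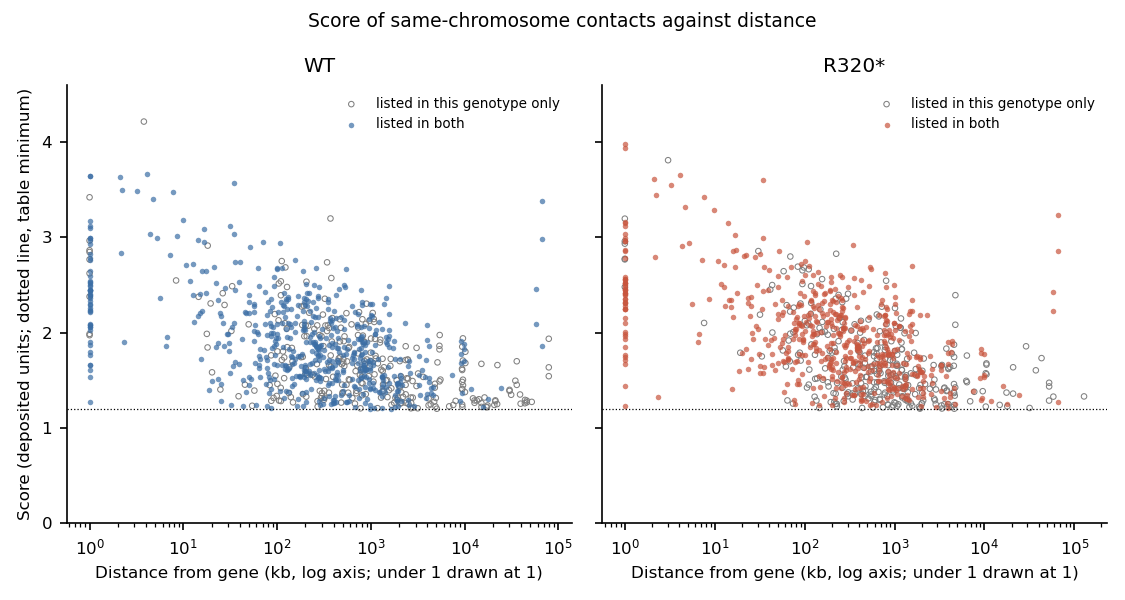
Score (y axis, deposited units) of each same-chromosome solute carrier contact against its distance from the gene (x axis, kb, logarithmic, with distances under 1 kb drawn at 1) in WT (left) and R320* (right). Filled points are listed in both genotypes and open points in that genotype only; the median shared WT score is 2.19 within 100 kb and 1.55 beyond 1 Mb, and the high points near 66 Mb are the SLC7A5 contacts at its pseudogene copies.

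**Figure D4:**
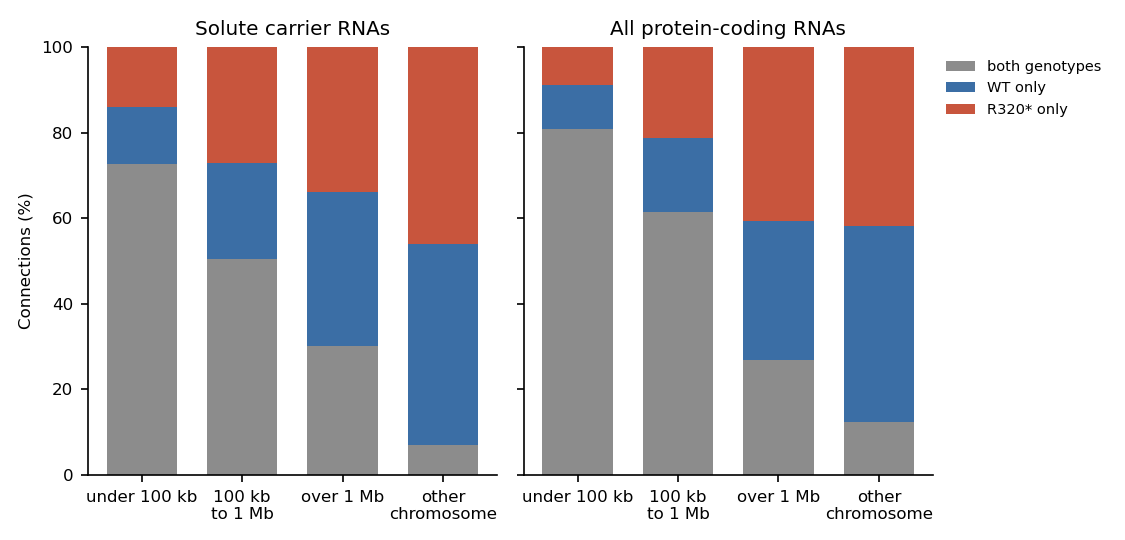
Percent of connections (y axis) listed in both genotypes, by WT alone and by R320* alone, by distance range (x axis), for the solute carrier RNAs (left) and all protein-coding RNAs (right). The shared portion of the solute carriers goes from 72.7% within 100 kb to 30.1% beyond 1 Mb and 6.96% on other chromosomes.

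Scores of the 601 shared connections were close in both genotypes. The median of R320* minus WT was 0.03 (SD 0.25 over connections), with 342 higher (56.9%) and 259 lower, against 0.04 (SD 0.25) and 58.6% higher over the whole table. A difference of at least 1 unit was found in 0 connections upward and 1 downward, beside 0.0998% and 0.0749% of all shared connections. Centring on the median of the whole table brought the portion higher to 49.3%. The largest rises were SLC13A3 RNA at the promoter of SLC2A10 from 1.46 to 2.38, SLC39A8 at an enhancer 86.4 kb away from 1.21 to 2.10, SLC30A6 at an enhancer near LBH from 1.39 to 2.18, SLC35F5 near ACTR3 from 1.76 to 2.51 and SLC7A1 near POMP from 1.30 to 1.99. The largest falls after that of SLC25A21 were SLC25A13 near TAC1 from 2.11 to 1.33, SLC35F3 near MAP3K21 from 2.46 to 1.72, SLC30A6 near LTBP1 from 1.93 to 1.27 and SLC37A1 near RSPH1 from 3.01 to 2.35.

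**Figure D5:**
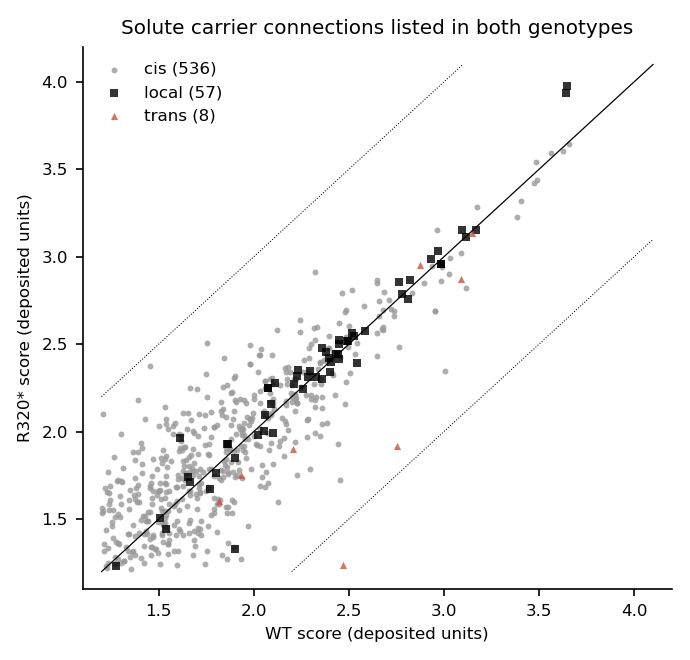
WT score (x axis) against R320* score (y axis), in deposited units, of the 601 solute carrier connections listed in both genotypes, by type (536 cis, 57 local, 8 trans). The solid line marks equal scores and the dotted lines 1 unit either way; 1 trans point, SLC25A21 at 2.47 and 1.24, lies outside them.

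Few elements were met by more than 1 solute carrier RNA: 9 of 1309. The MALAT1 promoter and the enhancer beside it were met by SLC35G2 in WT and by SLC35G2, SLC25A21, SLC35F3 and SLC7A11 in R320*. These are elements that many RNAs met, 279 and 271 in the whole table. The RSPH14 and RAB36 elements on chromosome 22 were met by SLC25A21 in WT and by SLC35F3 in R320*, the latter with up to 3.06. An enhancer at CU633906.2 on chromosome 21 was met by SLC25A21 and SLC7A11 in WT only.

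Seen from the other side, 124 elements carried the name of a solute carrier of the set, at least 1 for each of the 40. Other RNAs met them through 356 contacts in WT and 338 in R320*, with 204 in common. By member, 15 received more in R320*, 15 fewer and 10 equal numbers.

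Other membrane transport RNAs, chosen by symbol (ABC transporters, SLCO carriers, ATP-driven pumps, aquaporins, potassium and TRP channels), gave like values. Of these 29 RNAs, which by symbol include TRPS1, a transcription factor, 24 were listed in both genotypes, 14 of them with more connections in R320*, 8 with fewer and 2 equal, with a median log2 ratio of 0.10. Their shared portion was 45.9%, 33.7% of their connections were at promoters and 9% were trans.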

How the data were processed

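GRID-seq libraries of K562 cells, 2 per genotype, were made after crosslinking with DSG and formaldehyde, per the labels' protocols. Tools named in the submitters' processing notes are cutadapt 1.12, BWA and bedtools, with the build hg38, in no stated role. The authors deposited 1 table of RNA-to-element connections with a score for WT and for R320*, pooled over libraries. The making of the score, with its filters and depth, was not given in the sources used here, and background correction, mapping of repeated sequence and the minimum of 1.2 can all change which connections are listed. A score of 0 was read as not listed. No connection had a replicate value, so no test was run.

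Members were taken by symbol and biotype. They, the roles and the motifs were chosen with earlier results of these data known. Distances run from the nearest end of the RefSeq gene (GRCh38.p14) to the element, with ranges at 100 kb and 1 Mb, and merged places join elements of an RNA within 1 Mb. Roles follow the family number. Named members are those with most connections, highest scores, largest ratios of number in each direction, listing in a single genotype, largest score differences, most trans contacts or greatest reach, and up to 3 examples per role; SLC22A23, SLC45A4, SLC18B1, SLC37A1, SLC30A10 and others outside this rule were named after their values were seen, to account for every member. A share counted as moved under an alternative when it left the 95% Clopper-Pearson interval of the main share, which covers counting only. Counting steps were tested on simulated data. Python 3.11.15 with pandas 2.3.3, numpy 2.4.6 and matplotlib 3.10.9 was used. Alternatives covered element blocks, the score minimum, merging, centring and single members.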

Additional observations from a re-analysis of the deposited data

How the results depend on the processing

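Of 30 alternatives to the main settings, 13 kept the value and 17 moved it. With no minimum mean, 17 members had more connections in R320* and 12 fewer, in place of 8 and 7. The first block of the table's rows alone gave 4 more and 3 fewer, and the second block 0 more and 2 fewer, since fewer members reach the mean. Merging within 1 Mb left 1 member with that mean, so it gave no value there; without the minimum, 8 had more, 7 fewer and 16 equal numbers. Centring on the table's median brought the portion of shared connections higher in R320* from 56.9% to 49.3%. A size of 0.5 units in place of 1 gave 35 connections past it, and local and cis connections alone gave 0. The portion listed in both genotypes was 35.4% after merging and 52.7% over RNAs of both genotypes. The trans portion was 36.1% after merging, because runs of cis elements join, and 4.16% without SLC25A21. The promoter portion was 49.3% and 6.21% in the first and second blocks; the cause was not tested. The portion beyond 1 Mb was 20.5% at scores of at least 1.5, and 26.1% without SLC7A11, an alternative chosen after seeing the data; leaving out the SLC7A5 contacts at its copies, also chosen then, gave 29.4%.

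No paired analysis was possible because the table holds 1 pooled column per genotype and no column carries a replicate number. For the same reason, leaving out each library could not be run. Depth is unknown, so a connection that is not listed cannot be told from a connection too thinly covered.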

Other observations

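Some neighbouring elements carry the same pair of scores for the same RNA. Among the 601 shared solute carrier connections, 14 (2.33%) in 7 groups from 6 members had a WT and an R320* score identical to those of another element of that RNA, and 2.09% did so over the whole table. SLC7A6 RNA scored 2.99 in WT and 2.96 in R320* at both enhancers labelled local. The elements of such a group spanned a median of 25.6 kb and at most 158 kb. Whether such elements were measured separately is not stated, and the counts of connections include each of them.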
